A study of Macaca mulatta with 27 samples.

Results

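TL-CDK8i (TL-CDK8/19i) and TL2i are culture protocols applied to rhesus PSCs to bring them from the primed to the naive state, and they were compared here to see how the transcriptome differs when the inhibitors of one are exchanged for those of the other. The members were the 3 samples labelled TL-CDK8i and the 3 labelled TL2i, which makes 6 of the 27 samples of the series, and all 17967 genes of the count tables were used. The series covers 7 protocols and 6 samples of primed cells, and the primed cells enter below for their levels only. Polyadenylated RNA of whole cultures was sequenced as directional single reads, and reads were counted per gene symbol. The cells are described as LyonES-tGFP-(S3), 1 clonal line made from the rhesus embryonic stem cell line LyonES with tauGFP under the CAG promoter and a lentiviral STAT3-ERT2 transgene, in which STAT3 is fused to a mutated hormone-binding domain of the oestrogen receptor and becomes active with tamoxifen. TL2i cells received LIF, tamoxifen, a MEK inhibitor and a GSK3β inhibitor. TL-CDK8i cells received LIF, tamoxifen and CNIO-47799, an inhibitor of CDK8 and CDK19, in place of both. Primed cells were passaged mechanically in clumps and the cells of both protocols as single cells. Results from cells described as 1 clone say nothing of other lines.

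MEK inhibitors block the kinase that activates ERK, the relay of FGF signals that primed PSCs need, and ERK activity is usually read from its feedback genes of the DUSP, SPRY and ETV families. GSK3β inhibitors stabilise beta-catenin, which then acts with TCF/LEF factors on Wnt target genes such as AXIN2. CDK8 and CDK19 are alternative kinases of the Mediator kinase module, which joins transcription factors to RNA polymerase II and can hold back or help their target genes.

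The TL-CDK8i samples held 8929940, 9652295 and 11034150 counts. The TL2i samples held 19482749, 16354474 and 13359671 counts. Every TL2i sample was deeper than every TL-CDK8i sample, so depth and protocol cannot be told apart. The primed samples held between 7111886 and 15183387 counts, with a median of 10606171.5. Nothing in the labels says that the replicates came from separate cultures, so the p-values measure only the spread between these samples, which may be technical.

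The labels were checked on the transgene first, since both protocols rest on it. Reads from the ERT2 portion would be counted under ESR1, the gene of the oestrogen receptor, if they aligned to it, and those from the STAT3 portion under STAT3, and neither can be told apart from reads of the cells' own genes. ESR1 had 4737, 3908 and 3192 counts in the TL2i samples. It had 305 counts in TL-CDK8i replicate 1, 1 in replicate 2 and 5 in replicate 3. The TL2i samples were thus alike and high, replicate 1 of TL-CDK8i was low, and replicates 2 and 3 were close to 0. Among primed samples, the columns lettered J had 0, 8 and 0 counts of ESR1 and the columns lettered K had 4152, 5775 and 4037. Elsewhere in the series ESR1 ranged from 0 to 11 counts in E-NHSM and from 0 to 7 in LCDM (EPS), and it had at least 5978 counts in 4i/L/b, 11329 in NHSM-v and 4842 in t2iLGöY. STAT3 stood at 252, 150 and 167 counts per 1000000 (CPM, scaled for library composition) in TL-CDK8i and at 769, 775 and 740 CPM in TL2i. Primed cells had 98.9, 100.3 and 119.9 CPM of STAT3 in the columns lettered J and 175, 217 and 184 CPM in those lettered K, so replicates 2 and 3 of TL-CDK8i lay above every J sample and below every K sample, and TL2i lay above all of them. The ESR1 counts therefore do not show the labelled STAT3-ERT2 in replicates 2 and 3 of TL-CDK8i. Where the ESR1 reads come from was not tested, and effects of the inhibitors and of a difference in the transgene cannot be told apart. The groups are called below by their labels.

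Replicate 1 of TL-CDK8i stood apart from replicates 2 and 3. Across genes, its log2 CPM correlated with those of the TL2i samples at r = 0.882 to 0.889, against 0.840 to 0.859 for replicates 2 and 3 (genes are not independent replicates). To measure this, 21 genes were chosen from the other 5 samples, with at least 20 CPM in TL2i and less than 5% of that in replicates 2 and 3. In replicate 1 these 21 genes lay at a median of 15.3% of their TL2i mean, with quartiles of 14.7 and 16.5%. Conversely, 56 genes had at least 20 CPM in replicates 2 and 3 and less than 5% of that in TL2i, and in replicate 1 they lay at a median of 83.9% of replicates 2 and 3, with quartiles of 76.3 and 96.4%. The 21 genes were thus present in replicate 1 at a nearly even share of their TL2i levels. Whether replicate 1 holds material of TL2i cells or of other cells was not tested, and it bears on every fold change that includes this sample. The fold changes that moved most without replicate 1 are given with and without it, or with a bound from the other samples. Smaller moves are not all given.

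**Figure D1:**
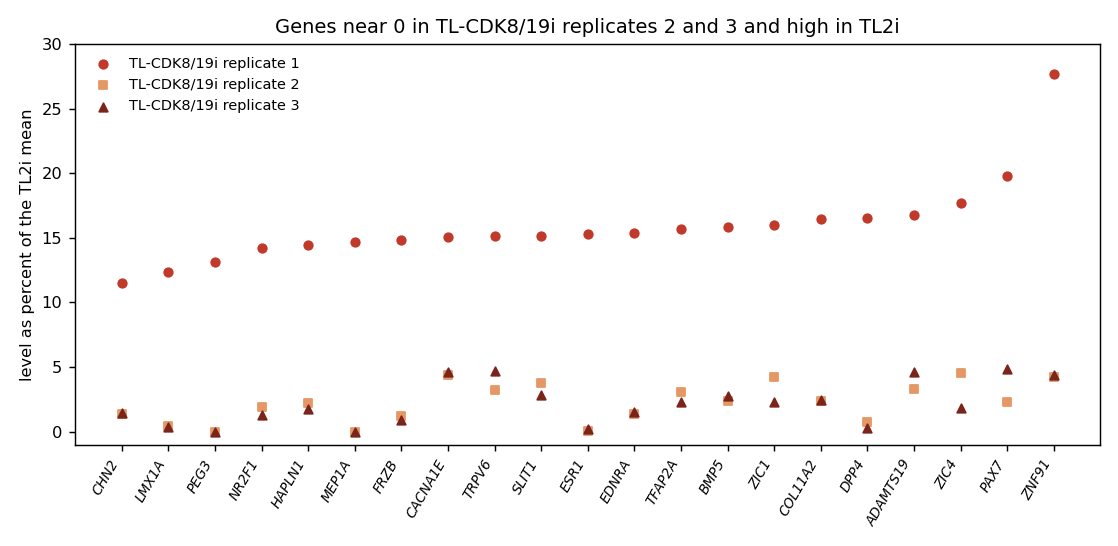
CPM in the 3 TL-CDK8i samples as a percent of the TL2i mean (vertical axis), 1 symbol for each sample, for the 21 genes that were chosen from the other 5 samples as under 5% of TL2i in replicates 2 and 3. Replicate 1 lies near 15% for nearly every gene, and PEG3 and MEP1A are at 0 in replicates 2 and 3.

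Of the 13729 genes tested, 8906 (64.9%) were called different at an edgeR adjusted p under 0.05. Of these, 4331 (31.5% of those tested) were higher in TL-CDK8i and 4575 (33.3%) were lower. Without replicate 1, 8985 of 14020 genes (64.1%) were called, 4356 (31.1%) higher and 4629 (33.0%) lower. Most calls were of modest size, with a median absolute log2 fold change of 0.86, and 1918 genes were higher and 1930 lower by at least 1 on the log2 scale. At 3 or more on that scale 389 genes were higher and 185 lower. These counts include replicate 1 of TL-CDK8i and were not repeated without it. Leaving it out moved FRZB from -4.22 to -6.60 and SPP1 from 7.30 to 7.37, so the lower count may depend on it. For 2747 genes (20.01%) the 95% interval lay wholly within 0.5 of no difference, and another 2392 were neither called nor held within that margin. Log2 fold changes are TL-CDK8i minus TL2i throughout, their median over all genes tested was -0.04, and that median and the shares above are the background for each list of genes below.

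**Figure D2:**
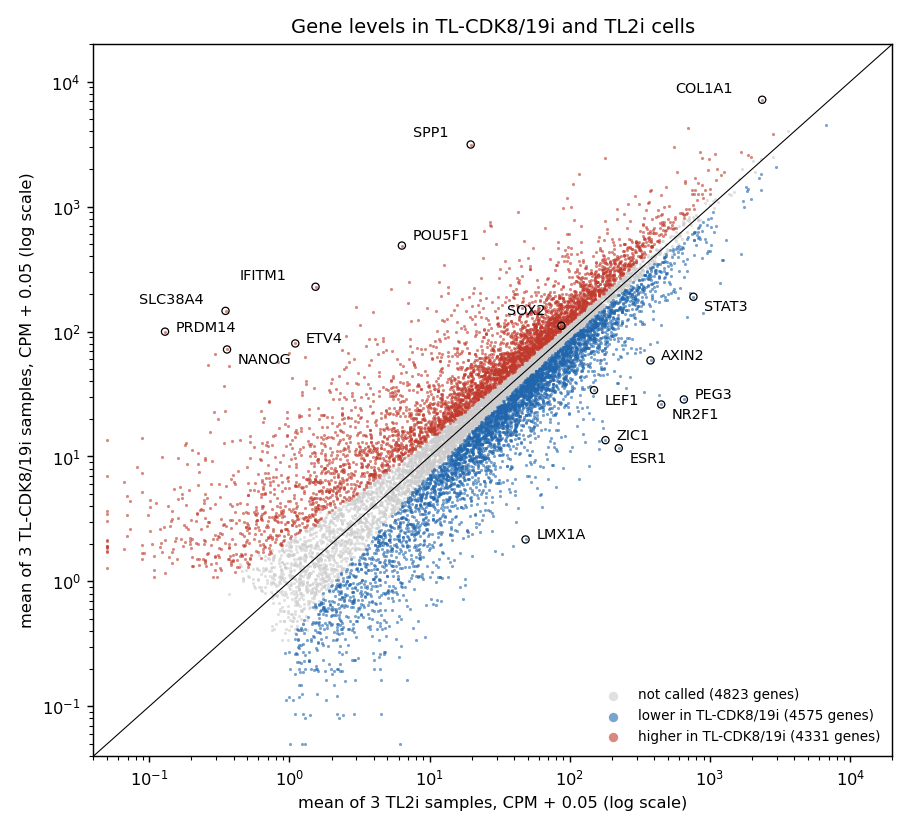
Mean CPM of each gene in TL2i (horizontal log axis) and TL-CDK8i (vertical log axis), each plus 0.05 CPM so that genes at 0 can be drawn, with genes called higher in red, called lower in blue and not called in grey. POU5F1, NANOG, PRDM14 and SPP1 lie far above the diagonal, and SOX2 lies close to it. PEG3 and ESR1, which lie far below, also differ between replicate 1 and the other TL-CDK8i samples.

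Most core pluripotency genes were higher in TL-CDK8i. POU5F1, which encodes the factor OCT4 at the centre of the pluripotency network, stood at 473, 404 and 584 CPM in TL-CDK8i and at 7.5, 5.05 and 6.33 CPM in TL2i. Its log2 fold change was 6.24 (SE 0.18, edgeR adjusted p = 9.1e-12), and primed cells held 1110 to 1273 CPM (median 1169). Reads of POU5F1 can be shared with its pseudogene copies, so its level is uncertain to that extent. NANOG, a partner of OCT4, reached 71.5, 49.6 and 94.2 CPM in TL-CDK8i and 0.53, 0.06 and 0.34 CPM in TL2i. All 3 TL-CDK8i samples were thus far above all 3 TL2i samples and below the lowest primed sample (105 CPM). The log2 fold change of NANOG was 7.75 (SE 0.35, edgeR adjusted p = 6.1e-10), and 8.50 without TL2i replicate 1. PRDM14, a repressor of differentiation genes, had 115, 79.4 and 104 CPM in TL-CDK8i, against 0.24, 0 and 0 CPM in TL2i. Its log2 fold change of 9.89 (SE 0.34) rested on the few counts of TL2i replicate 1, and without that sample PRDM14 was at least 527-fold higher in TL-CDK8i. SOX2, which neural cells express as well, differed little, with 107, 103 and 123 CPM in TL-CDK8i and 86.4, 85.0 and 89.7 CPM in TL2i (log2 fold change 0.33, SE 0.10, edgeR adjusted p = 6.9e-03).

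Of the 19 core pluripotency genes tested, 14 were higher and 3 lower in TL-CDK8i, with a median log2 fold change of 2.17, and 9 were higher when 10 counts were required in each library, a filter that drops genes near 0 in either group. Summed over the list, the level was 3579, 2859 and 3794 CPM in TL-CDK8i and 1372, 1170 and 1275 CPM in TL2i, and the most abundant gene was DNMT3B in the first and LIN28B in the second. DPPA4, a chromatin protein of pluripotent cells, was higher by 5.11 (SE 0.14), and DNMT3B, the de novo DNA methyltransferase, by 2.84 (SE 0.14). UTF1 had 0 counts in every TL2i sample and was at least 20.9-fold higher in TL-CDK8i. LIN28A, which blocks the let-7 microRNAs, was not called (log2 fold change -0.07), while LIN28B (-0.66), FOXD3 (-1.76) and TERT (-1.41) were lower. The call for TERT was lost without TL-CDK8i replicate 2 (edgeR adjusted p = 0.054) or TL2i replicate 3 (0.063), and with all 8 groups in 1 edgeR fit (0.16). In bulk samples, fewer cells of a type and less RNA per cell cannot be told apart, so these levels do not say how POU5F1 transcripts were spread over the TL2i cells.

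**Figure D3:**
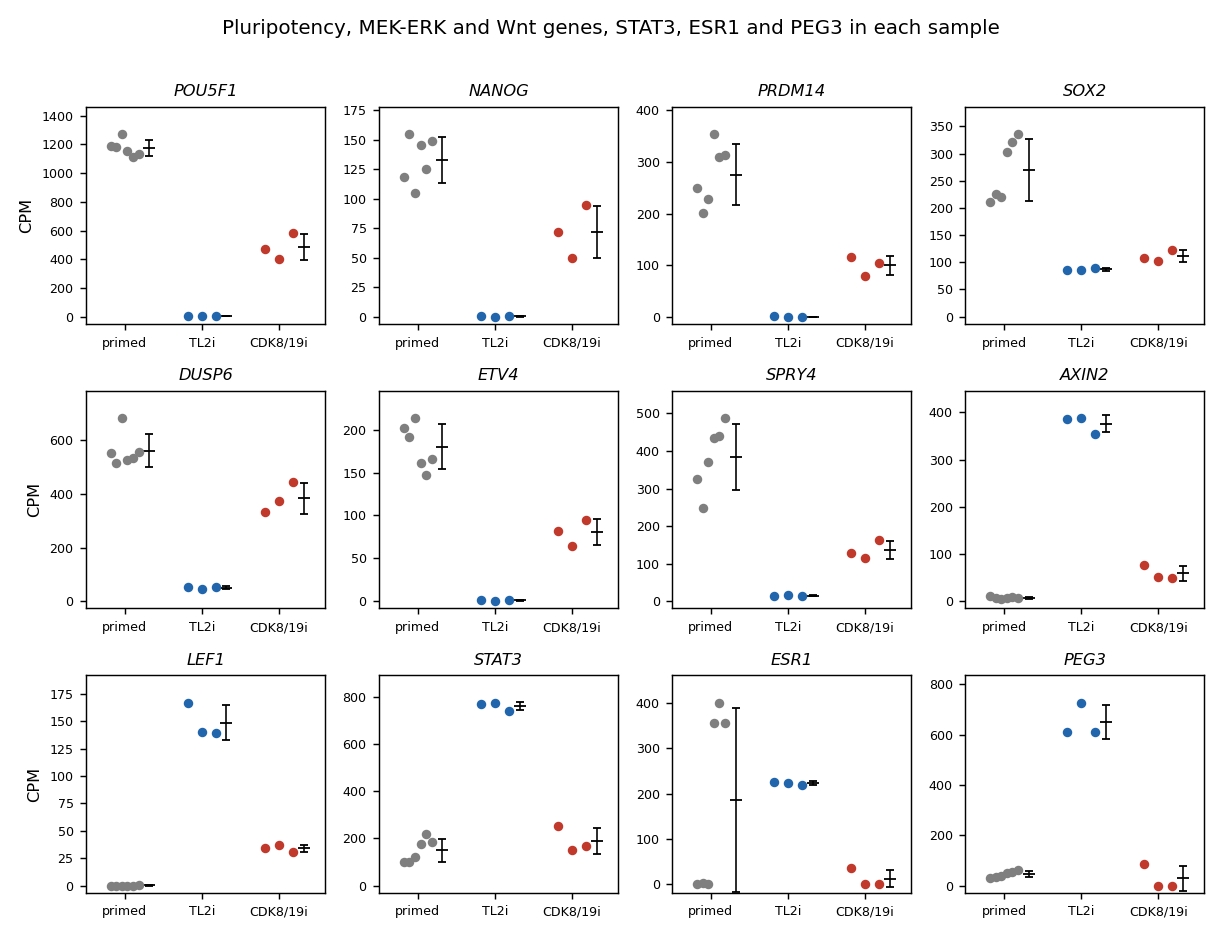
CPM of 12 genes (1 panel each, linear axis) in every primed, TL2i and TL-CDK8i sample, with the mean and SD of each group. POU5F1, NANOG, PRDM14 and the ERK feedback genes are near 0 or low in TL2i, AXIN2, LEF1 and STAT3 are high there, and ESR1 and PEG3 separate replicate 1 from the other TL-CDK8i samples.

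The MEK inhibitor is present in TL2i and absent from TL-CDK8i, and ERK feedback genes were higher in TL-CDK8i. DUSP6, a phosphatase that switches ERK off, had 333, 373 and 446 CPM in TL-CDK8i and 52.9, 44.5 and 53.8 CPM in TL2i. SPRY4, an inhibitor of receptor signals to ERK, had 128, 116 and 163 CPM against 14.6, 15.3 and 12.8 CPM. ETV4, an ETS factor induced by FGF, had 81.9, 64.1 and 94.6 CPM against 1.48, 0.57 and 1.1 CPM. The groups did not overlap for any of these genes, and the log2 fold changes were 2.91 (SE 0.12) for DUSP6, 3.23 (SE 0.14) for SPRY4 and 6.19 (SE 0.24) for ETV4. Primed cells were higher still, with medians of 543, 403 and 179 CPM respectively. All 20 MEK-ERK feedback and target genes were called, 18 higher and 2 lower in TL-CDK8i, with a median of 2.06. The lower ones were EPHA2 (-0.50) and CCND1, which encodes cyclin D1 (-0.37). The call for CCND1 was lost without TL-CDK8i replicate 3 (edgeR adjusted p = 0.072), TL2i replicate 1 (0.064) or TL2i replicate 3 (0.065), which leaves 1 of the list lower, and with all 8 groups in 1 fit (0.062). Immediate-early genes, which growth factors induce within minutes, showed 10 of 13 higher and 0 lower at the threshold (1 lower with upper-quartile normalization), with a median of 1.49. EGR1, an early target of ERK, was at 142, 107 and 157 CPM in TL-CDK8i and at 41.6, 34.8 and 28.6 CPM in TL2i, yet both groups were far below the lowest primed sample (1105 CPM).

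Wnt target genes differed in the other direction. AXIN2, a feedback inhibitor of beta-catenin and its most general target, stood at 76.1, 52.1 and 47.9 CPM in TL-CDK8i and at 386, 387 and 355 CPM in TL2i. LEF1, itself a partner of beta-catenin, stood at 34.3, 37.1 and 30.3 CPM in TL-CDK8i and at 167, 140 and 139 CPM in TL2i. Log2 fold changes were -2.70 (SE 0.15) for AXIN2 and -2.16 (SE 0.11) for LEF1. Both genes were well above primed cells in TL-CDK8i as well, which has no GSK3β inhibitor, since the highest primed sample had 10.5 CPM of AXIN2 and 0.88 CPM of LEF1. Among 18 Wnt/beta-catenin target genes tested, 11 were lower and 2 higher in TL-CDK8i, with a median of -1.03. NOTUM, an enzyme that inactivates Wnt ligands, was lower (-3.61, SE 0.33), at levels of 8.46 to 14.7 CPM in TL2i. The higher members were NKD2 (1.61) and T, the mesoderm factor brachyury (1.40), both scarce in every sample, and the call for T was lost without TL-CDK8i replicate 3 (edgeR adjusted p = 0.056) and with all 8 groups in 1 fit (0.48), where 1 of the list was higher.

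LIF signalling genes were split. STAT3 was lower in TL-CDK8i, with a log2 fold change of -2.03 (SE 0.16, edgeR adjusted p = 1.2e-07), and -2.29 without replicate 1. LIFR, the LIF receptor chain, had 55.0, 38.4 and 40.0 CPM in TL-CDK8i and 133, 223 and 158 CPM in TL2i (log2 fold change -1.97, SE 0.18). IL6ST, the shared receptor chain gp130, was lower as well (-0.78, SE 0.11). SOCS3, the usual early target of active STAT3, had 27.6, 26.4 and 36.3 CPM in TL-CDK8i and 21.4, 20.2 and 21.0 CPM in TL2i, so it was slightly higher where STAT3 was lower (log2 fold change 0.51, SE 0.14, edgeR adjusted p = 6.2e-03, and 0.051 with all 8 groups in 1 fit). Of 21 genes of the LIF-JAK-STAT3 pathway tested, 9 were higher and 9 lower, with a median of 0.09 (-0.11 without replicate 1).

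The targets of CNIO-47799 were transcribed in both groups. CDK8 had 70.2, 70.6 and 74.5 CPM in TL-CDK8i and 56.8, 51.9 and 50.05 CPM in TL2i, while CDK19 had 29.4, 29.0 and 28.2 CPM in TL-CDK8i and 38.4, 40.0 and 37.8 CPM in TL2i. The kinases thus differed by less than 0.5 in opposite directions, with log2 fold changes of 0.42 (SE 0.10, edgeR adjusted p = 1.6e-03) for CDK8 and -0.45 (SE 0.11, edgeR adjusted p = 2.4e-03) for CDK19. Of the 7 genes of the Mediator kinase module, 2 were higher and 3 lower, with a median of -0.10. MED12, which activates the kinase, was lower (-0.87, SE 0.11) and its paralog MED12L higher (1.05, SE 0.10). CCNC, the cyclin of the module, was not called (-0.10). The other 26 Mediator subunits held 6 higher and 8 lower genes (5 lower with all 8 groups in 1 fit), with a median of -0.22. Transcript levels do not measure kinase activity.

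Naive-state genes were divided in direction. Of 14 tested, 5 were higher and 5 lower in TL-CDK8i, with a median of 0.42 (0.25 without replicate 1, with 4 higher). Their summed level was nevertheless higher in TL-CDK8i, at 312.3, 383.4 and 344.5 CPM, than in TL2i, at 179, 202.3 and 178.6 CPM. The most abundant gene was KLF5 in TL-CDK8i and TFE3 in TL2i. KLF5, a Krüppel-like factor of the early epiblast and of epithelia, had 160, 243 and 205 CPM in TL-CDK8i against 17.9, 24.1 and 19.2 CPM in TL2i (log2 fold change 3.29, SE 0.15). KLF5 differed by more CPM than the sums did, so the higher sum rested on this gene. NODAL (3.25) and NR5A2 (2.87) were also higher, and TBX3 (-1.98), GATA6 (-1.35) and TFE3 (-0.49) lower. Primed means were above both protocols for NODAL (37.1 CPM), NR5A2 (37.6 CPM), TFE3 (77.6 CPM) and ZFP57 (28.9 CPM), another higher member. They were below both for KLF5 (9.22 CPM), TBX3 (0.14 CPM) and GATA6 (1.68 CPM), among others. GATA6 is also a member of the endoderm list. DPPA3 had the lowest value of the list (-3.175) and was scarce, with means of 0.25 CPM in TL-CDK8i and 2.26 CPM in TL2i. TFAP2C was lower by a small margin (-0.38), and its call was lost without TL-CDK8i replicate 3 or TL2i replicate 1 (edgeR adjusted p = 0.055 in both). With all 8 groups in 1 fit, TFAP2C (edgeR adjusted p = 0.41) and GATA6 (0.30) were not called, and 2 of the list were lower. Several genes often used to recognise the naive state were scarcely counted: KLF17 had 0 counts in all 6 samples, TFCP2L1 and KLF4 had at most 1.46 and 3.12 CPM in TL-CDK8i, SUSD2 had at most 7.63 CPM, and none of the last 3 was called. Without replicate 1 the log2 fold change of TFCP2L1 passed from 0.64 to -0.03. Primed-state genes were more often higher, 14 of 19 against 4 lower, with a median of 0.77. Among them FGF2, the growth factor of primed cultures (3.38, SE 0.12), and SFRP1, a Wnt antagonist (3.31, SE 0.14), were higher, and COL2A1 was lower (-1.20, SE 0.14). Not every member was high in the primed samples. Primed means were 643 CPM for VIM, 265 CPM for CDH2 and 11.6 CPM for COL2A1, below both protocols. No other tested member of this list had a primed mean below both. Among 8 DNA methylation writers and erasers, 3 were higher and 5 lower, with a median of -0.34, led by DNMT3B on one side and the dioxygenase TET2 (-2.05, SE 0.20) on the other. Without TL-CDK8i replicate 3 the lower count of that list was 3.

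Genes of the neural plate and roof plate were mostly lower in TL-CDK8i. ZIC1, a zinc-finger factor of the dorsal neural tube, had 28.7, 7.54 and 4.11 CPM in TL-CDK8i and 203, 152 and 184 CPM in TL2i. WNT1, the ligand of the dorsal midline, had 20.3, 11.6 and 11.01 CPM in TL-CDK8i and 81.7, 84.0 and 93.4 CPM in TL2i. LMX1A, a roof plate factor, had 5.95, 0.22 and 0.19 CPM in TL-CDK8i and 48.9, 45.8 and 50.2 CPM in TL2i. For all 3 genes replicate 1 was the highest of its group and still below every TL2i sample. The log2 fold change of ZIC1 was -3.79 with replicate 1 and -4.99 without it. That of LMX1A was -4.60 with it, -7.88 without it and -4.00 without replicate 3. The log2 fold change of WNT1 was -2.62 (SE 0.18), and -2.96 without replicate 1. Of 35 neural plate and roof plate factors tested, 21 were lower and 7 higher, with a median of -1.42 (-1.61 without replicate 1, with the same counts). The sum over the list was 775, 525 and 627 CPM in TL-CDK8i and 1477, 1426 and 1467 CPM in TL2i, with ZIC2, which was not called, as the most abundant gene in both. SIX3, a marker of the anterior plate, had 0 counts in every TL2i sample and a mean of only 0.11 CPM in TL-CDK8i, and was not tested. EN1, a midbrain and hindbrain factor, went the other way, from 0.19, 0.23 and 0.76 CPM in TL2i to 13.5, 15.2 and 11.95 CPM in TL-CDK8i (log2 fold change 5.15, and 5.96 without TL2i replicate 3).

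Proneural and neuron genes were divided. The 25 tested included 13 lower and 7 higher genes, with a median of -0.89; without replicate 1 these were 15, 8 and -1.26, and 6 were lower when 10 counts were required in each library. The genes of the microtubule proteins DCX (-1.39, SE 0.14) and MAP2 (-2.23, SE 0.21) were lower. The neurofilament genes were higher: NEFM had 222, 309 and 276 CPM in TL-CDK8i and 30.2, 32.8 and 29.97 CPM in TL2i (log2 fold change 3.10, SE 0.12), and NEFL was higher by 3.40 (SE 0.18). The summed level was 1061, 1313 and 1136 CPM in TL-CDK8i, led by NEFM, and 807, 793 and 801 CPM in TL2i, led by MAP2. NEFM, NEFL and INA had means of 269, 182 and 247 CPM in TL-CDK8i and 31.0, 17.0 and 42.5 CPM in TL2i. Together they differed by more than the sums did, so the higher sum rested on them. NEUROG3 had 0 counts in all 6 samples. ATOH1 had 0 counts in TL-CDK8i and a mean of 0.19 CPM in TL2i, and was not tested. Neural progenitor genes counted 6 higher and 10 lower of 19, with a median of -0.35 and overlapping sums (6018 to 7122 CPM in TL-CDK8i and 6375 to 6563 CPM in TL2i). NES, the intermediate filament nestin, was at 1799, 1885 and 1828 CPM in TL-CDK8i and 2225, 2291 and 2400 CPM in TL2i (log2 fold change -0.35), a call lost without TL2i replicate 3 (edgeR adjusted p = 0.052). VIM, the most abundant gene of that list in TL-CDK8i, was higher (0.68, SE 0.13).

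Most neural crest genes were lower in TL-CDK8i. SOX10, the defining factor of migrating crest, had 18.4, 26.8 and 14.2 CPM in TL-CDK8i and 154, 96.0 and 119 CPM in TL2i (log2 fold change -2.67, SE 0.21), and primed cells had at most 2.67 CPM. TFAP2A, which specifies crest at the neural plate border, had 12.6, 2.48 and 1.87 CPM in TL-CDK8i and 87.6, 76.6 and 76.2 CPM in TL2i. Its log2 fold change was -3.89, and -5.24 without replicate 1. Of the 15 genes tested 12 were lower, TWIST1 (2.27) was higher and 2 were not called, with a median of -1.61. The summed level was 452, 574 and 462 CPM in TL-CDK8i, with ETS1, which was not called (-0.15), as the most abundant gene, and 1294, 1011 and 1118 CPM in TL2i, with ERBB3, and no member was at 0 throughout a group. The part of neural and crest cells in the other results was not tested.

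Mesenchyme and fibroblast genes went both ways, more of them higher in TL-CDK8i. COL1A1, the main collagen of mesenchyme, had 7119, 8166 and 6183 CPM in TL-CDK8i and 1449, 3238 and 2378 CPM in TL2i (log2 fold change 1.58, SE 0.21). ACTA2, smooth muscle actin, had 1136, 1708 and 1172 CPM against 375, 367 and 368 CPM (1.83, SE 0.14). Neither gene overlapped between the groups, and primed cells had no more than 49.1 CPM of ACTA2. Of 23 mesenchyme and fibroblast genes tested, 13 were higher and 5 lower, with a median of 1.00. The lower count was 7 without TL-CDK8i replicate 1 and 8 without TL2i replicate 1. The sum was 17270, 20640 and 16230 CPM in TL-CDK8i and 6822, 10720 and 8603 CPM in TL2i, with COL1A1 leading in both. LOX (2.69, SE 0.24), which crosslinks collagen, THY1 (2.75, SE 0.12) and POSTN (1.97, SE 0.24) were also higher. THY1 is in the primed-state list as well, with means of 87.9 CPM in TL-CDK8i, 12.8 CPM in TL2i and 73.6 CPM in primed cells. Primed means were 72.1 CPM for LOX and 2.97 CPM for POSTN. DCN (decorin) and LUM (lumican) had at most 5.04 and 9.38 CPM in TL-CDK8i and neither was called, nor was COL3A1. Left-out samples made LUM and COL3A1 called as lower, LUM without TL-CDK8i replicate 1 (edgeR adjusted p = 0.044) or 2 (0.027) or TL2i replicate 1 (0.046), and COL3A1 without TL-CDK8i replicate 1 (0.036) or TL2i replicate 1 (2.6e-03). COL6A1 (-1.03), COL6A2 (-1.13) and COL6A3 (-0.65), the collagen VI chains, were lower. The part of such cells in the result was not tested.

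The actin family, chosen after its values were seen, was divided by form. ACTG2 had 1619, 1800 and 2058 CPM in TL-CDK8i and 116, 118 and 115 CPM in TL2i, a log2 fold change of 3.95 (SE 0.11, edgeR adjusted p = 9.1e-12). ACTA1 (3.82, SE 0.13) and ACTC1 (3.58, SE 0.12), the skeletal and cardiac forms, were higher by similar amounts. The cytoplasmic forms hardly differed, with ACTB higher by 0.46 (SE 0.10) and ACTG1 not called (0.13, edgeR adjusted p = 0.26, and 0.042 with all 8 groups in 1 fit). In all, 5 of 6 actin genes were higher, with a median of 2.71, and ACTB was higher under every scaling tried. The coding sequences of actins are nearly identical, so the split of reads among them is uncertain. Among the genes with the largest rise in CPM were also ITGB1, the beta-1 integrin chain, at 3578, 4774 and 4467 CPM against 659, 794 and 647 CPM (2.59, SE 0.13), and the actin-binding genes CALD1 (2.42), VCL (1.66) and MYH9 (1.26), together with SPARC (1.25) and DPYSL3 (1.46). Some matrix genes went the other way. FN1, fibronectin, had 5012, 5171 and 3420 CPM in TL-CDK8i and 4718, 9126 and 6353 CPM in TL2i (log2 fold change -0.59, edgeR adjusted p = 0.019). These groups overlapped, and the call was lost without TL-CDK8i replicate 3 (0.09), TL2i replicate 2 (0.15) or TL2i replicate 3 (0.057), and in DESeq2 (0.12). COL18A1 (-1.74), VCAN (-1.73) and COL4A2 (-0.84) were lower.

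**Figure D4:**
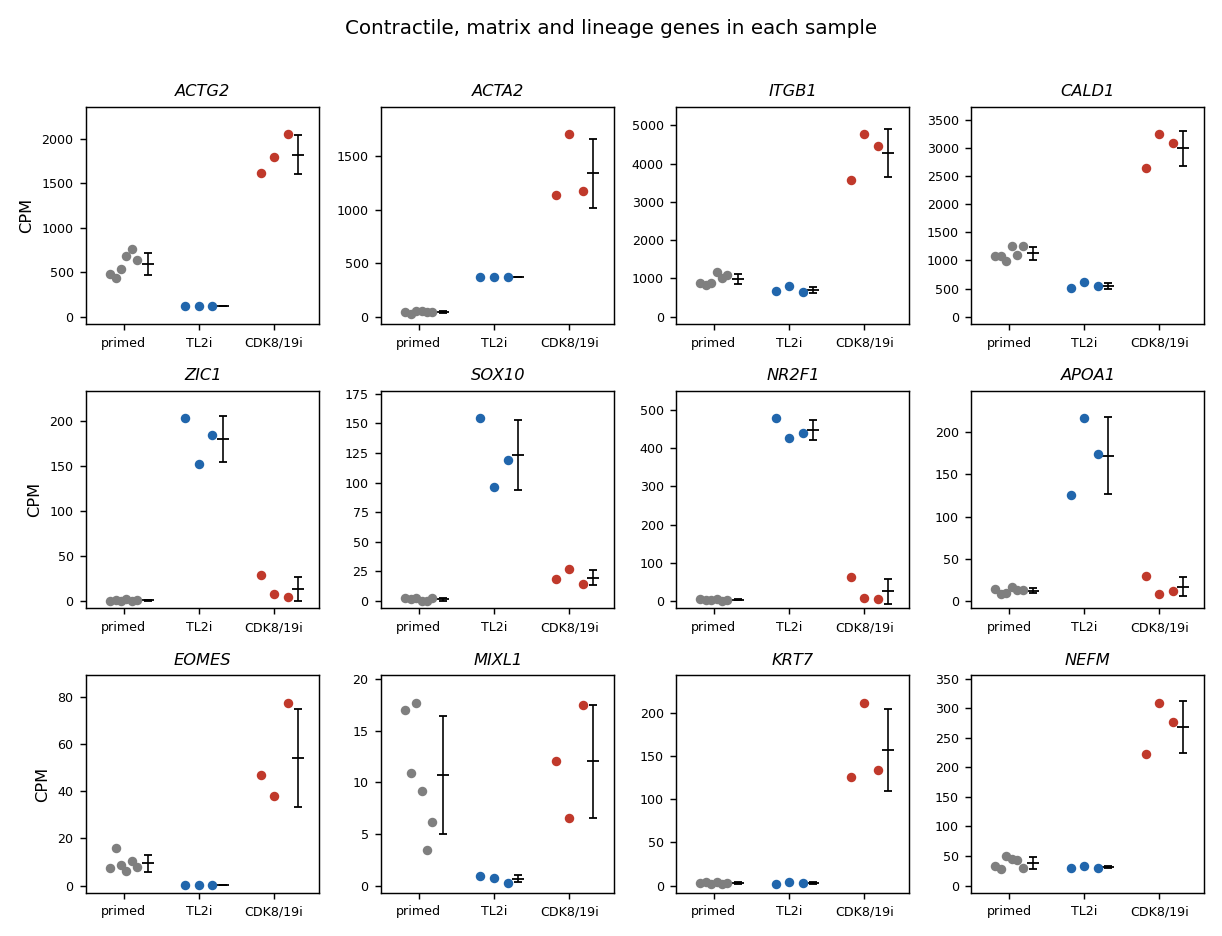
CPM of 12 contractile, matrix and lineage genes (1 panel each, linear axis) in every primed, TL2i and TL-CDK8i sample, with the mean and SD of each group. ACTG2, ACTA2, ITGB1, CALD1, KRT7, NEFM and EOMES are highest in TL-CDK8i, and ZIC1, SOX10, NR2F1 and APOA1 are highest in TL2i.

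Adhesion genes were mixed. The cadherin and epithelial-mesenchymal list held 10 higher and 11 lower of 28 genes (6 lower with all 8 groups in 1 fit), with a median of -0.05. CDH13, a cadherin anchored without a cytoplasmic domain, was higher (3.13, SE 0.15) and CDH6 lower (-1.84, SE 0.10). CDH1, the epithelial cadherin that PSCs use, had 26.3, 9.16 and 14.8 CPM in TL-CDK8i and 22.4, 35.9 and 29.97 CPM in TL2i. Its log2 fold change of -0.83 (edgeR adjusted p = 0.018) was not called without TL-CDK8i replicate 2 (0.074) or 3 (0.055), TL2i replicate 2 (0.082) or 3 (0.057), in DESeq2 (0.13) or with all 8 groups in 1 fit (0.065), and the groups overlapped. Without TL-CDK8i replicate 1, the highest of its group, CDH1 was at -1.31 (edgeR adjusted p = 4.1e-05). All 6 samples were below the lowest primed sample (30.5 CPM) except TL2i replicate 2.

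Markers of the germ layers and of extraembryonic tissue divided by lineage. EOMES, a T-box factor of the primitive streak, had 46.8, 37.8 and 77.4 CPM in TL-CDK8i and 0.19, 0.17 and 0.28 CPM in TL2i (log2 fold change 7.94, SE 0.37), and primed cells ranged from 5.99 to 15.8 CPM. MIXL1, another streak factor, was higher too (4.10, SE 0.43). Of 14 mesoderm genes tested 9 were higher and 1 lower, with a median of 1.85. Their sum was 164, 149 and 206 CPM in TL-CDK8i, led by EOMES, and 39.9, 48.7 and 43.5 CPM in TL2i, led by PDGFRA, and MSGN1 had 0 counts in all 6 samples. Of 17 endoderm genes tested 11 were lower and 6 higher, with a median of -1.22. APOA1, an apolipoprotein of visceral endoderm and liver, had 29.5, 8.73 and 12.1 CPM in TL-CDK8i and 125, 216 and 174 CPM in TL2i (log2 fold change -3.39, and -4.06 without replicate 1). SOX17, which specifies endoderm, was lower too (-2.17, SE 0.32). The endoderm list summed to 239, 195 and 290 CPM in TL-CDK8i, led by EOMES, and 313, 479 and 377 CPM in TL2i, led by APOA1. APOA2 had 0 counts in TL-CDK8i and a mean of 0.40 CPM in TL2i, and was not tested. Of 17 trophoblast and amnion genes 10 were lower and 6 higher, with a median of -1.10. KRT7, a keratin of trophoblast and amnion, was at 126, 212 and 134 CPM in TL-CDK8i and at 1.67, 3.90 and 3.23 CPM in TL2i (log2 fold change 5.75, SE 0.26), while GATA3, a defining factor of the same tissue, was lower (-1.10, SE 0.27). The fit of all 8 groups did not call SOX17 (edgeR adjusted p = 0.13) or GATA3 (0.51). Its counts were 6 lower and 3 higher for endoderm, 4 lower for trophoblast and amnion, and 0 lower for mesoderm. Under the filter of 10 counts in each library, 3 mesoderm and 3 endoderm genes were higher. The trophoblast and amnion list summed to 1055, 1411 and 1073 CPM in TL-CDK8i and 729, 944 and 819 CPM in TL2i. KRT8 led this list in both groups. ELF5, CGA and VGLL1 had 0 counts in TL-CDK8i and means of 0.25, 0.05 and 0.13 CPM in TL2i, and were not tested. The part of these cell types in the result was not tested.

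**Figure D5:**
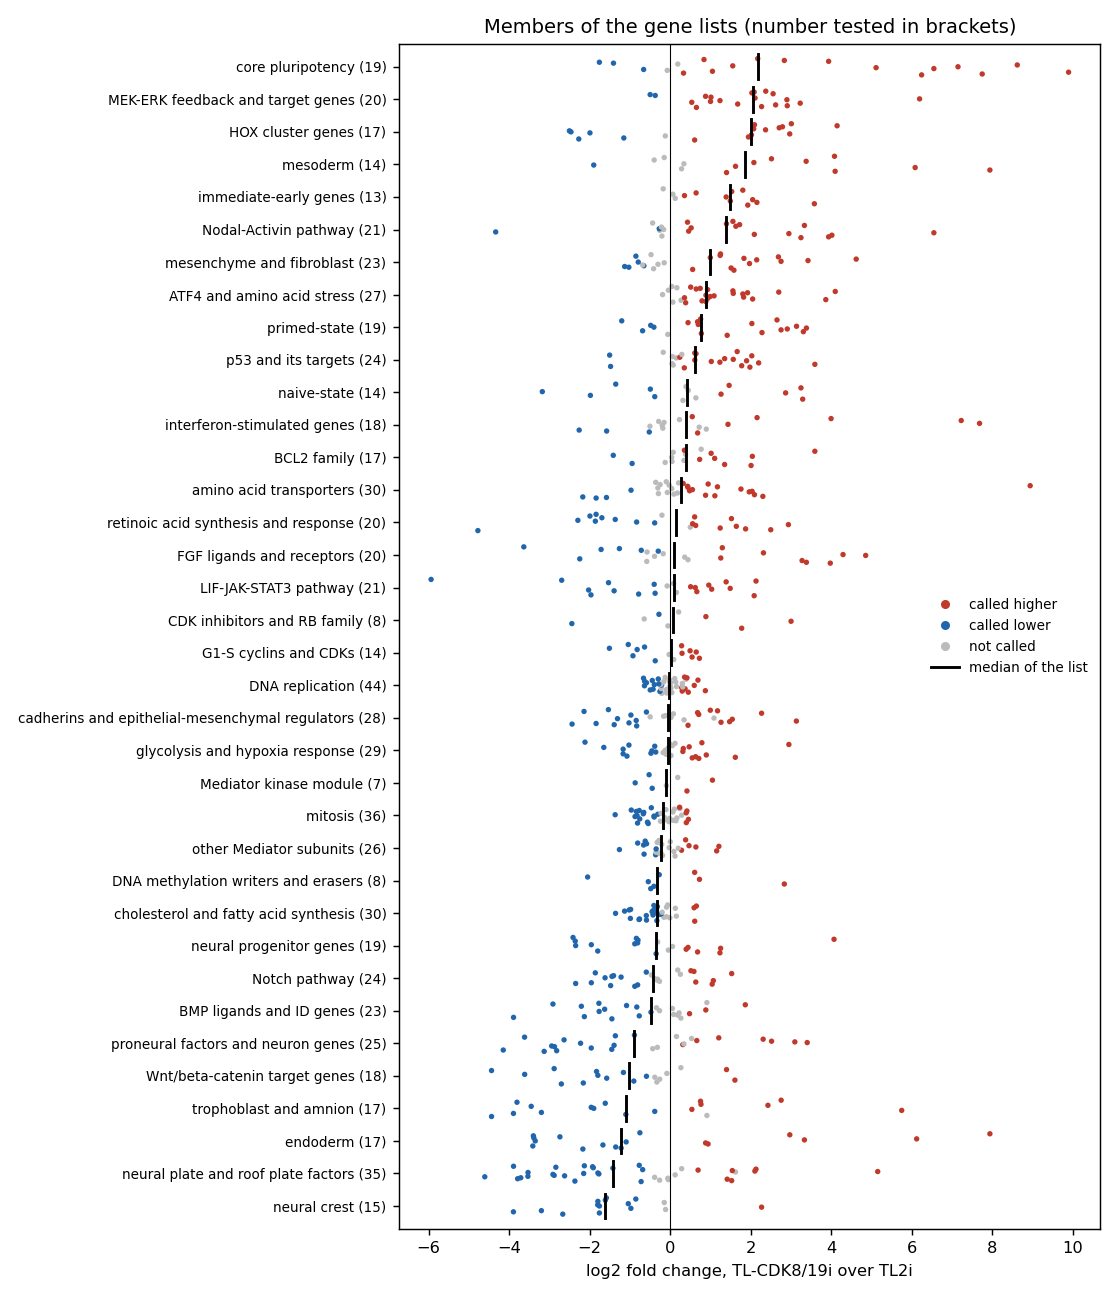
Log2 fold changes (TL-CDK8i minus TL2i) of every tested member of each fixed list, 1 point per gene and a bar at the median, with genes called higher in red, called lower in blue and not called in grey. MEK-ERK, core pluripotency, Nodal-Activin and ATF4 lists lie mainly to the right of the line at 0, and Wnt target, neural plate and neural crest lists mainly to the left.

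Ligands and their pathways differed along with these markers. In the Nodal-Activin pathway, which maintains OCT4 and NANOG in primed PSCs, 14 of 21 genes were higher and 2 lower, with a median of 1.40. INHBA, the activin A chain, had 396, 449 and 322 CPM in TL-CDK8i and 11.7, 38.7 and 21.1 CPM in TL2i (log2 fold change 4.02, SE 0.30), and SMAD7, a feedback target, was higher (1.63, SE 0.13). The lower count was 1 without TL-CDK8i replicate 2, with all 8 groups in 1 fit and with the filter of 10 counts. BMP ligands and ID genes held 12 lower and 3 higher of 23, with a median of -0.48. BMP2 (-1.45, SE 0.17) and the target ID2 (-1.63, SE 0.11) were lower, while the target ID1 was higher (0.89, SE 0.13). The antagonists were divided too, with GREM1 (1.87, SE 0.14) higher and NOG (-2.21, SE 0.20) and CHRD (-1.08, SE 0.25) lower, though CHRD was not called with all 8 groups in 1 fit (edgeR adjusted p = 0.17). The higher count of the list was 5 without TL-CDK8i replicate 3. FGF ligands and receptors were split, 8 higher (5 with the filter of 10 counts) and 6 lower of 20, with a median of 0.09. The ligand FGF1 was higher (3.98, SE 0.21) and the receptor FGFR3 lower (-1.72, SE 0.15). Retinoic acid genes were 9 higher (5 with all 8 groups in 1 fit) and 9 lower of 20, with a median of 0.15 (0.04 without replicate 1). Within them RARB, a receptor that retinoic acid induces, was higher (2.94, SE 0.19) and CRABP1, which binds retinoic acid in the cytosol, lower (-2.29, SE 0.17). Notch pathway genes held 6 higher and 11 lower of 24, with a median of -0.43 (-0.62 without replicate 1), among them NOTCH2 (-1.48, SE 0.11) and the ligand DLL1 (-2.35, SE 0.27), while the targets were divided, HES1 higher (1.07, SE 0.13) and HEY2 (-1.62, SE 0.21) and HEYL (-1.22, SE 0.13) lower. HOX cluster genes were 11 higher and 5 lower of 17, with a median of 2.02 (1.63 without replicate 1). The higher count was 5 with all 8 groups in 1 fit and 1 with the filter of 10 counts. Their summed level was nevertheless lower in TL-CDK8i, at 97.0, 123 and 85.0 CPM, than in TL2i, at 186, 175 and 180 CPM. HOXB2, the most abundant member in TL2i, was lower (-2.46, SE 0.19), and most of the higher ones were scarce.

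Genes of p53 and of ATF4 were mostly higher in TL-CDK8i, and other stress and survival lists were mixed. CDKN1A, the p53 target p21, had 101, 139 and 90.7 CPM in TL-CDK8i and 35.7, 30.9 and 28.2 CPM in TL2i (log2 fold change 1.78, SE 0.15). MDM2, the ubiquitin ligase of p53 and also its target, had 182, 186 and 184 CPM against 45.2, 49.2 and 43.5 CPM (1.98, SE 0.09). Both genes were clearly separated between the groups, and of 24 p53 genes 16 were higher and 2 lower, with a median of 0.63. ATF4 and amino acid stress genes were 21 higher and 0 lower of 27 at the threshold, with a median of 0.89. TRIB3, a pseudokinase induced by ATF4, was at 51.0, 57.4 and 54.6 CPM in TL-CDK8i and at 4.49, 3.16 and 3.23 CPM in TL2i (3.87, SE 0.16), and PSAT1, of serine synthesis, was higher by 1.82 (SE 0.12). Amino acid transporters held 15 higher and 4 lower of 30, with a median of 0.27. SLC7A5, the leucine carrier, was the most abundant of them in both groups and was higher (2.04, SE 0.10). SLC38A4, a carrier of neutral amino acids, had 150, 148 and 140 CPM against 0.14, 0.34 and 0.41 CPM (8.94, SE 0.19). In the BCL2 family 8 of 17 were higher and 2 lower, with a median of 0.38. BCL2 itself was higher (2.01, SE 0.37) at 5.50 to 10.2 CPM, BCL2L1 was higher (1.35, SE 0.11), and the pro-apoptotic BMF lower (-1.41, SE 0.15). Interferon-stimulated genes were 7 higher (4 with 10 counts required in each library) and 3 lower of 18, with a median of 0.39. IFITM1 was at 231, 186 and 268 CPM against 1.58, 1.43 and 1.44 CPM (7.23, SE 0.18), although reads can be shared among the IFITM paralogs, and OAS2, at 0 counts in every TL2i sample, was at least 10.7-fold higher.

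Most metabolic and cell cycle lists were mixed, but cholesterol and fatty acid genes were mostly lower in TL-CDK8i. Of the 30 tested, 19 were lower and 3 higher, with a median of -0.34. SCD, a fatty acid desaturase, was among the higher ones (log2 fold change 0.65, SE 0.09). Glycolysis and hypoxia genes were evenly divided, 10 higher and 10 lower of 29, with a median of -0.05. LDHA, lactate dehydrogenase, was lower (-1.17, SE 0.11), ADM, adrenomedullin, was higher (2.95, SE 0.13), and GAPDH was not called (-0.17) except without TL2i replicate 2 (-0.24, edgeR adjusted p = 0.032). G1-S cyclins and CDKs were 6 higher and 6 lower of 14, with a median of 0.03. CDK4 (0.65), CCNE1 (0.54) and CCND3 (0.73) were higher, E2F1 (-0.82), E2F2 (-1.51), E2F5 (-1.04) and CCNE2 (-0.92) were lower, CCND2 and CCNA2 were not called and lay within 0.5, and CDK2 was higher (0.30) except without TL-CDK8i replicate 2 (edgeR adjusted p = 0.13) or TL2i replicate 3 (0.078). CDK inhibitors and the RB family held 3 higher and 2 lower of 8, with a median of 0.08. CDKN2B, the inhibitor p15, was higher (3.00, SE 0.24), CDKN1C, the inhibitor p57, was lower (-2.44, SE 0.22), and CDKN1B was not called (-0.06). The lower count was 1 without any single TL2i sample, in DESeq2 and with all 8 groups in 1 fit, and 3 without TL-CDK8i replicate 1. DNA replication genes were 9 higher and 12 lower of 44, with a median of -0.02, and for 24 of the 44 the interval lay within 0.5. Mitosis genes were 5 higher and 16 lower of 36, with a median of -0.18. The higher count was 8, 3 and 2 without TL-CDK8i replicates 1, 2 and 3 and 9 without TL2i replicate 1. CENPE, a kinetochore motor, was lower (-1.37, SE 0.15). BMI1, a polycomb protein that represses the CDKN2A locus, was lower (-1.22, SE 0.13).

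Genes with the largest differences came from many functions. Of the 15 genes named for the highest log2 fold changes, those not yet described were SPP1 (osteopontin, 7.30, SE 0.17), CLIC5 (8.0, SE 0.25), MFAP5 (6.87, SE 0.31), MGLL (6.27, SE 0.35), PPP2R2C (6.06, SE 0.23), TDGF1, DPPA2 and GABBR2. SPP1 stood at 2817, 2899 and 3692 CPM in TL-CDK8i and at 17.4, 23.2 and 18.1 CPM in TL2i, and primed cells had 1281 to 2806 CPM. TDGF1, the Nodal co-receptor, had a log2 fold change of 6.55, which was 5.88 without TL2i replicate 1 and 7.90 without TL2i replicate 2. DPPA2, the partner of DPPA4, was at 7.15, and 8.06 without TL2i replicate 1. GABBR2 was at 6.13, and 6.72 without TL2i replicate 2. TL2i held few counts of TDGF1, DPPA2 and GABBR2, and single TL2i samples moved their ratios.

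The 15 genes named for the lowest log2 fold changes are all among the 21 that set replicate 1 apart, so their fold changes depend on it. PEG3, a paternally expressed imprinted gene, had 85.6, 0 and 0 CPM in TL-CDK8i and 612, 727 and 612 CPM in TL2i. With replicate 1 its log2 fold change was -4.55 (SE 0.99, edgeR adjusted p = 1.1e-03), and replicates 2 and 3, at 0 counts, were at least 2157-fold lower than TL2i. Without replicate 2 or 3 the value was -3.96 or -3.94, and DESeq2 did not call PEG3 (adjusted p = 0.19). In the other 7 groups of the series PEG3 had at least 270 counts in every sample. MEP1A, a metalloprotease, was at 4.82, 0 and 0 CPM against 22.1, 43.5 and 32.9 CPM, so that replicates 2 and 3 were at least 109-fold lower; its log2 fold change was -4.45 (-3.79 without replicate 3), and DESeq2 did not call it (adjusted p = 0.097). ESR1 had a log2 fold change of -4.34, which was -9.53, -3.75 and -3.72 without TL-CDK8i replicates 1, 2 and 3. NR2F1, a nuclear receptor of neural crest and forebrain, had 63.6, 8.51 and 5.88 CPM in TL-CDK8i and 478, 427 and 440 CPM in TL2i, with a log2 fold change of -4.15 (-6.00 without replicate 1). The other genes also lay lower when replicate 1 was left out. CHN2 passed from -4.46 to -6.15, FRZB, a Wnt antagonist, from -4.22 to -6.60, and EDNRA, the endothelin receptor A, from -4.11 to -6.15. DPP4 passed from -4.18 to -7.54 (-3.55 without replicate 3), HAPLN1 from -4.09 to -5.67, and BMP5 from -3.89 to -5.30. COL11A2 passed from -3.88 to -5.39 and SLIT1, an axon guidance ligand, from -3.82 to -4.96. None of these directions depended on replicate 1. The largest falls in CPM beyond FN1 and the collagens were less tied to it. PRTG, protogenin, was at 511, 362 and 368 CPM in TL-CDK8i and 1589, 1844 and 1573 CPM in TL2i (-2.03, SE 0.14). The splicing genes SRRM2 (-0.79, SE 0.11) and SFPQ (-1.28, SE 0.11) were lower, as were AHNAK (-0.79, SE 0.16) and TUBB (-0.53, SE 0.10), whose reads can be shared with other beta-tubulins.

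Primed levels were set beside both groups for every called gene. Of the 4331 genes higher in TL-CDK8i, the primed mean was nearer to TL-CDK8i for 2153 (49.7%) and nearer to TL2i for 2178. Of the 4575 lower genes, it was nearer to TL-CDK8i for 2834 (62.0%) and nearer to TL2i for 1741. The primed mean was nearer to TL-CDK8i for 15 of 19 core pluripotency genes, NANOG among them, and for 15 of 20 MEK-ERK genes, DUSP6 among them. Lists that were mostly lower in TL-CDK8i had similar shares, with 14 of 18 Wnt target, 14 of 17 endoderm and 26 of 35 neural plate and roof plate genes. Other lists had smaller ones, such as 6 of 24 p53 genes. These list shares cover all tested members, and those before them only called genes. The primed mean was nearer to TL2i for LIN28B, FOXD3 and TERT, whereas KRT7 and CLIC5 were high in TL-CDK8i and low in both other groups. Primed cells were cultured and passaged differently, and the level of each group is given without a test.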

How the data were processed

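The authors made directional libraries from polyadenylated RNA, sequenced single reads and deposited raw counts of reads per gene symbol, 1 column for each of 27 samples, with no pooling. The submitters' processing notes name bcl2fastq, cutadapt, HISAT2 and HTSeq. The genome build and annotation are not given in the sources used here, so reads shared between near-identical genes may have been split or dropped. Samples were grouped by their labels. The 6 primed columns carry letters that match no single label and were taken as 1 group.

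With R 4.3.3 and edgeR 4.0.16 (limma 3.58.1), the 3 TL-CDK8i and 3 TL2i samples were fitted by the quasi-likelihood test without a block, after TMM normalization and filterByExpr, with Benjamini-Hochberg adjustment over all genes tested and a threshold of 0.05. Standard errors came from each fold change with its F value, and intervals are 95%. CPM levels used TMM factors over these 6 and the 6 primed samples, and the fit used factors of its own 6. Depth ranged from 8929940 to 19482749 counts among the 6 samples, and a gene with 0 counts in a whole group was given a bound from a floor of 3 counts per library, which covers counting error only. The procedure was tested on simulated data.

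Named genes were those the paper names, the 15 highest and 15 lowest log2 fold changes among called genes with at least 20 CPM in the higher group groups that do not overlap and a symbol other than a locus number, the 10 largest rises and 10 largest falls in mean CPM, and members of the 36 lists where a list is described. Members and lists were chosen with earlier results of these data known. The lists hold 802 symbols, of which 778 were found. The actin family was chosen after its values were seen, and so were the sets that describe replicate 1. Alternatives were DESeq2 1.42.0, upper-quartile normalization, a minimum log2 fold change of 1, no filter, a minimum of 10 counts in each library, all 8 groups in 1 fit, the replicate number as a block, and each sample left out in turn. Some members of the lists and of the named genes are not reported here. Promoter sequences were not used here.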

Additional observations from a re-analysis of the deposited data

Results flagged for a closer look

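Among the genes whose primed levels are given, 4 of 18 had 1 primed sample far from the other 5, where chance flags about 1 in 20. SPP1 stood at 2806 CPM in primed sample K1, against 1281 to 1443 CPM in the others. DUSP6 stood at 682 CPM in primed sample J3, against 516 to 556 CPM in the others. LEF1 stood at 0.88 CPM in primed sample K3 and CLIC5 at 0.49 CPM in primed sample K2, with 0 counts of each gene in the other 5. For LEF1 and CLIC5 any count in a single sample would stand apart in this way, so the chance rate does not apply to them. None of these samples enters the comparison of TL-CDK8i with TL2i.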

How the results depend on the processing

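The counts of called genes kept within 1.5 times of 8906 under all alternatives but 1. With a minimum absolute log2 fold change of 1 in the test, 2309 genes were called, 1298 higher and 1011 lower, by construction fewer; that test gives no interval, so the genes within 0.5 could not be counted. DESeq2 called 8674 (4369 higher), upper-quartile normalization 8950 (4078 higher), no filter 9135, at least 10 counts in every library 8009, and all 8 groups in 1 fit 6635. Upper-quartile normalization moved the median of all genes to -0.09. Leaving out single samples gave 8108 to 8985 called genes, 4002 to 4356 higher, 3996 to 4629 lower, and 2210 to 2471 within 0.5. With the replicate number as a block, 8420 genes were called, 4114 higher and 4306 lower, and 2435 lay within 0.5. Same-numbered samples of the groups did not deviate together (r = -0.144, -0.030 and -0.005 for the pairs 1, 2 and 3), so the numbers do not pair the samples. Of the 156 named genes called, 51 lost the call under at least 1 alternative (15 of them under one other than the minimum fold change, and 0 under the block, which leaves 1 lower gene among CDK inhibitors and the RB family) and 0 turned direction. Of the uncalled ones, 4 were called under some alternative, LUM also with the block, and 23 of 72 list counts moved by over 1.5 times under an alternative other than the minimum fold change; the cause was not tested. TL-CDK8i libraries were shallower, so genes near 1 CPM are measured less precisely there, and 3 samples a group leave differences of 2392 genes undecided.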
